A study of Homo sapiens with 6 samples.

Results

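The 77 genes described here encode proteins of the mitochondrial ribosome and were selected by symbol, as every row of the count table named MRPL or MRPS followed by a number and, for some, a letter from A to C. They were 77 of the 37923 genes in the table, 48 with large-subunit symbols (MRPL) and 29 with small-subunit symbols (MRPS). RNA was sequenced from 6 samples of cells labelled RKO, a human colorectal carcinoma line. The ENZ group held 3 libraries, from cells that the series design describes as given an LSD1 degrader, compound A3, and the Control group held 3 libraries of cells without it. RNA was taken at 48 h, from 3 biological replicates a group. LSD1 is a histone demethylase encoded by KDM1A. No source used here gives the dose, the vehicle, the meaning of the name ENZ or whether replicates came from separate cultures, so a p-value measures only the spread among these samples, which may be technical.

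Mitochondria translate a handful of proteins from their own genome, all of them core parts of the respiratory chain and ATP synthase, on a ribosome of bacterial descent. Its RNA is made in the mitochondrion, whereas every protein of the ribosome is encoded in the nucleus, made in the cytosol and imported. The small subunit reads the mRNA and the large subunit joins amino acids, and many of the proteins have no bacterial counterpart. Most cell types express these genes, and their promoters are known for binding sites of ETS-family factors such as GABPA, of YY1 and of NRF1.

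Libraries held 26756840 to 30025543 counts in the ENZ group and 26691289 to 28207612 in the Control group. KDM1A had 105, 110 and 113 CPM in the ENZ libraries, against 111, 110 and 113 CPM in the Control libraries; CPM here are counts scaled to a common library total after TMM normalisation, which corrects for RNA composition. A degrader acts on the protein, so this transcript does not check the exposure. Of 9 colorectal markers analysed, 5 averaged under 1 CPM, among them CDX1 and KRT20, and their summed level was 152 to 157 CPM in the ENZ libraries and 134 to 139 CPM in the Control libraries. The 11 prostate luminal markers summed to 3191 to 3268 CPM in the ENZ libraries and 2803 to 2849 CPM in the Control libraries, which goes against the label. Fibroblast markers summed to 40.7 to 43.4 CPM in the ENZ libraries and 76.5 to 85.4 CPM in the Control libraries, mostly from LUM. COL1A1 averaged 12.3 CPM in ENZ and 11.3 CPM in Control, and DCN averaged 0.340 and 2.19 CPM. COL1A2 was at 0 in 5 of 6 libraries and PDGFRB under 1 CPM in each. The part of these markers in the results was not tested. Leukocyte and endothelial markers summed to under 2 CPM in each library. In bulk RNA, fewer cells of a type and less RNA per cell cannot be told apart. The cells are called here by their group names.

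A log2 fold change here is ENZ over Control from edgeR's quasi-likelihood test, and a gene was called at a Benjamini-Hochberg adjusted p under 0.05 over 18581 genes tested. Of the 77 members, 75 passed the expression filter; 23 were higher and 6 were lower in ENZ. These are 30.7% and 8% of the members tested, beside 20.5% called higher and 19.3% called lower among all genes tested (39.8% in either direction). All changes were small: log2 fold changes ran from -0.33 to 0.36, and 0 of 75 members passed an absolute log2 fold change of 1, which 2.98% of all genes did with a call. The median of the members was 0.09 and that of all genes tested was -0.01. The SD among the members' log2 fold changes was 0.15, against 0.42 over all genes tested. These sets were not matched for level. The median was 22.2 FPKM (counts per gene length and library total) in the members and 3.23 FPKM in all genes tested. Log2 fold changes of all genes reached -7.28, and the part of level in the spread was not tested. In 31 members every ENZ library lay above every Control library, and in 10 every ENZ library lay below, beside 25.3% and 24.0% of all genes tested.

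**Figure D1:**
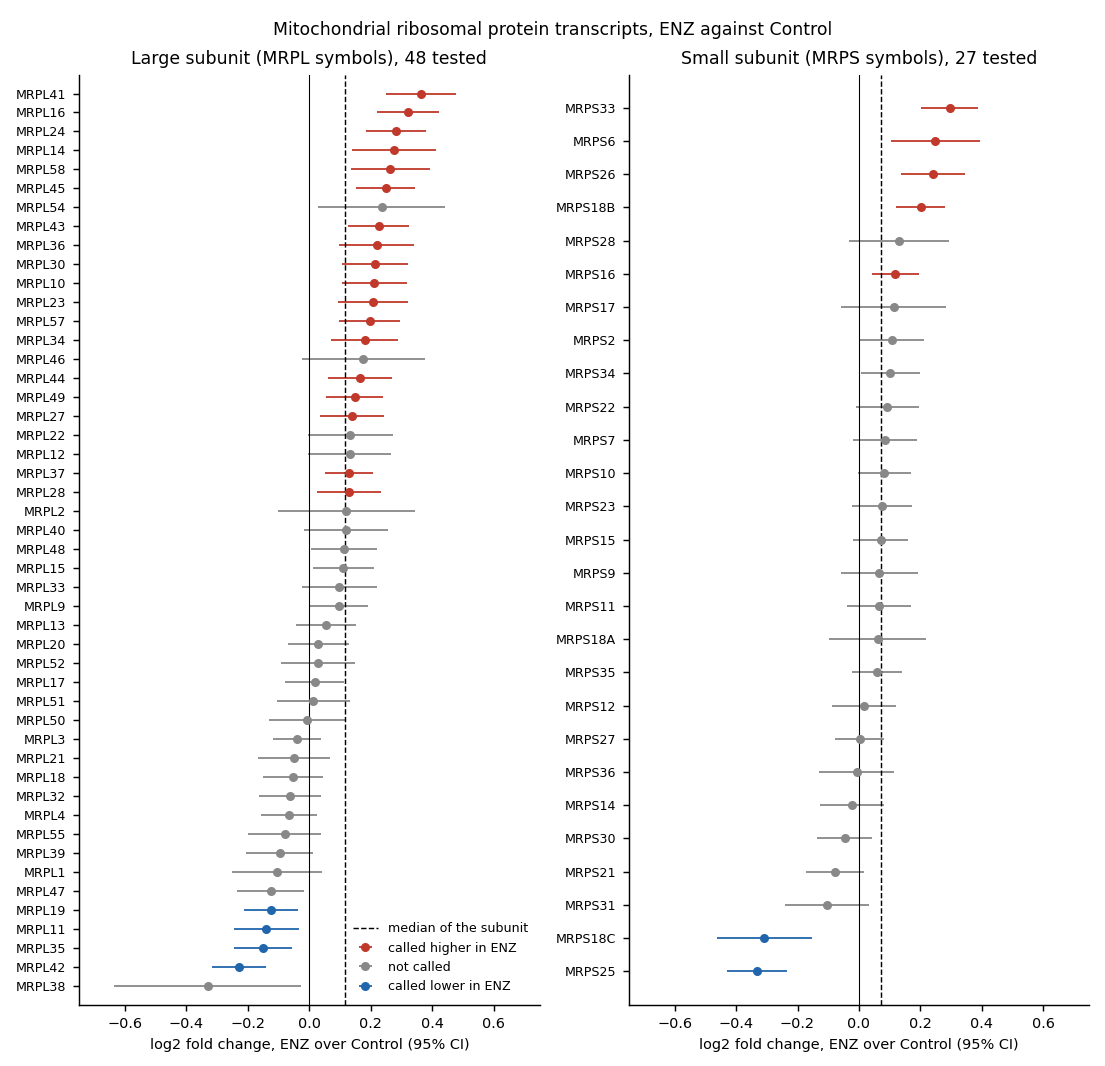
Log2 fold change of each tested member, ENZ over Control, with its 95% confidence interval (horizontal axis), sorted within the large subunit (left) and the small subunit (right). Filled points are coloured by call, and dashed lines mark the subunit medians, 0.12 and 0.07; 18 large-subunit and 5 small-subunit members were called higher.

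Of the 48 large-subunit members, all tested, 18 rose and 4 fell, and the median log2 fold change was 0.12. Of 27 tested small-subunit members, 5 rose and 2 fell, with a median of 0.07. The shares that rose were 37.5% in the large subunit and 18.5% in the small subunit, so the small-subunit rises were close to the 20.5% of all genes. The shares that fell were 8.33% in the large subunit and 7.41% in the small subunit, both under the 19.3% of all genes. The medians differed by 0.05. That difference had the opposite sign, at -0.01, when GC content and transcript length were modelled for each library; with those offsets 32 large-subunit and 16 small-subunit members were higher, and 5 and 1 were lower (66.7%, 59.3%, 10.4% and 3.70%, beside 26.3% higher and 16.8% lower among all genes). An order of the subunits is therefore not established by these values. Without ENZ replicate 1 the small subunit had 8 rises, and the 4 falls of the large subunit became 1 without Control replicate 1 or ENZ replicate 2 and 2 without Control replicate 3.

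**Figure D2:**
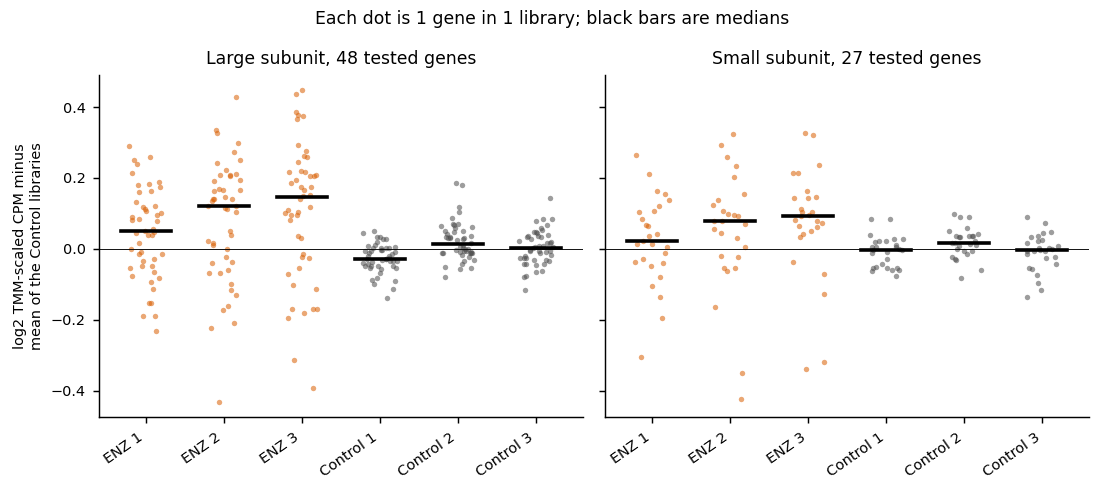
Log2 TMM-scaled CPM of each tested member in each library, minus that gene's mean over the Control libraries (vertical axis); dots are genes and black bars are medians. The large-subunit medians of ENZ replicates 1 to 3 were 0.05, 0.12 and 0.15, all above the Control medians, and the dots of the Control libraries lie closer to 0 in part because their own mean was subtracted.

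Summed over each subunit, the members gave 3101, 3183 and 3240 CPM for the large subunit in the ENZ libraries, against 2982, 3062 and 3044 CPM in the Control libraries. The small subunit gave 2006, 2060 and 2099 CPM in the ENZ libraries, against 1957, 1990 and 1958 CPM in the Control libraries. With TMM scaling each ENZ library lay above each Control library in both sums, by a mean ratio of 1.05 for the large and 1.04 for the small subunit. As a percent of all counts, without TMM, the small-subunit groups overlapped, with 0.1994% in ENZ replicate 1 and 0.2003% in Control replicate 2. The large-subunit groups were then nearly tied at their edges, with 0.3083% in ENZ replicate 1 and 0.3082% in Control replicate 2. The ratio of the large to the small sum was 1.54 ± 0.001 in ENZ libraries and 1.54 ± 0.016 in Control libraries (SD, n = 3 each), so the balance of the subunits differed by less than the spread between Control libraries. The plot of every member by library shows ENZ replicate 1 lowest of the ENZ libraries in both subunits, with medians of 0.05 and 0.02 relative to Control.

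Among the large-subunit genes, MRPL41, a protein found in mitochondrial but not bacterial ribosomes, rose most. It had 73.0, 84.7 and 85.2 CPM in the ENZ libraries, against 63.0, 64.2 and 61.6 CPM in the Control libraries, a log2 fold change of 0.36 ± 0.05 (SE; adjusted p = 2.08e-05). All ENZ libraries were above all Control libraries, and ENZ replicate 1 was the lowest of its group. MRPL41 lies on chromosome 9 from 137551879 to 137552555 (ENSG00000182154; GRCh38, GENCODE release 44). MRPL16, whose bacterial homolog helps shape the site where tRNA enters, had 72.6, 77.0 and 79.2 CPM in ENZ and 60.5, 59.2 and 63.2 CPM in Control (log2 fold change 0.32 ± 0.05; adjusted p = 1.72e-05). MRPL24, homolog of a protein that binds early in bacterial subunit assembly, had 143, 156 and 163 CPM in ENZ and 122, 133 and 125 CPM in Control (0.28 ± 0.05; adjusted p = 7.00e-05). Neither gene's groups overlapped.

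MRPL14, which sits on the face that meets the small subunit, rose by 0.28 ± 0.07 on the log2 scale, with 35.2, 40.6 and 42.0 CPM in ENZ and 31.2, 34.4 and 31.7 CPM in Control. MRPL58 is a peptidyl-tRNA hydrolase built into the ribosome and is known for releasing stalled chains. It had 39.2, 39.8 and 45 CPM in ENZ and 33.7, 33.2 and 36.5 CPM in Control (0.26 ± 0.06). MRPL45, at the mouth of the exit tunnel facing the inner membrane, had 74.5, 72.1 and 75.4 CPM in ENZ and 60.9, 62.1 and 63.9 CPM in Control (0.25 ± 0.05). In each of these 3 genes the ENZ libraries stood above all Control libraries, and the changes were 18.8% to 21.0% on the linear scale. The other 12 large-subunit rises were smaller, with log2 fold changes from 0.13 to 0.23. They took in MRPL10, which holds the stalk that recruits translation factors, MRPL44, which has an RNase III fold, MRPL43 and MRPL36.

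Of the 4 large-subunit falls, that of MRPL42 was the largest. MRPL42 had 132, 126 and 118 CPM in ENZ and 148, 146 and 146 CPM in Control, a log2 fold change of -0.23 ± 0.04 (adjusted p = 1.95e-04). MRPL35 (-0.15 ± 0.05; adjusted p = 0.011), in the central protuberance, and MRPL11 (-0.14 ± 0.05; adjusted p = 0.031), at the base of the stalk, followed. MRPL19 was at -0.13 ± 0.04 (adjusted p = 0.0225). In all 4 genes the highest ENZ library was below the lowest Control library. With GC and length offsets only the fall of MRPL11 was still called among these 4 (-0.15; adjusted p = 0.00265); MRPL42 was at -0.02, MRPL35 at 0.01 and MRPL19 at 0.08. The MRPL11 call ended without any one library other than ENZ replicate 3 (-0.09 to -0.14), the MRPL35 call without Control replicate 1 (-0.14) or ENZ replicate 2 (-0.12), and the MRPL19 call without Control replicate 1 or 3 or ENZ replicate 2 or 3 (-0.10 to -0.12).

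In the small subunit MRPS33 rose most. It had 79.3, 80.9 and 82.8 CPM in the ENZ libraries, against 65.6, 67.6 and 64.8 CPM in the Control libraries, with a log2 fold change of 0.30 ± 0.04 (SE; adjusted p = 1.89e-05) and no overlap of the groups. MRPS6, homolog of bacterial S6, had 21.2, 22.9 and 21.2 CPM in ENZ and 17.5, 17.9 and 19.4 CPM in Control (0.25 ± 0.07; adjusted p = 0.00727); part of its exons is shared with SLC5A3. MRPS26 had 76.2, 83 and 86.6 CPM in ENZ and 67.2, 71.3 and 69.4 CPM in Control (0.24 ± 0.05; adjusted p = 5.74e-04). MRPS16, in which mutations are known to cause a respiratory chain disorder, rose by 0.12 ± 0.04, with 191.9, 197.0 and 200.1 CPM in ENZ and 182, 177 and 184 CPM in Control (adjusted p = 0.0142). The groups did not overlap in any of these 4 genes, but the MRPS16 call ended with library totals alone (0.08) and without Control replicate 2 (0.10) or ENZ replicate 2 (0.12). The remaining small-subunit rise was MRPS18B, described with its paralogs.

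MRPS25 was the lower of the small-subunit falls. It had 59.2, 57.3 and 57.8 CPM in the ENZ libraries, against 73.7, 70.1 and 75.6 CPM in the Control libraries, a log2 fold change of -0.33 ± 0.05 (adjusted p = 8.49e-06). Of its exonic bases 45.9% also belong to exons of another gene, among them NR2C2 on the opposite strand, and the library kit does not mark strand, so its count is uncertain. MRPS25 was the 1 fall among 11 members called in the same direction in every one of 18 alternative settings. All settings use the same assignment of reads to genes, so they do not bear on that uncertainty. The 10 rises were MRPL10, MRPL16, MRPL24, MRPL36, MRPL41, MRPL43, MRPL44, MRPL45, MRPS18B and MRPS33. Among these rises MRPL43 and MRPL44 share 38.1% and 13.3% of their exonic bases with other genes, and the others share none.

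The 3 MRPS18 paralogs descend from 1 bacterial protein, S18, and occupy different places in the ribosome. MRPS18B, a small-subunit protein, rose by 0.20 ± 0.04, with 151, 155 and 159 CPM in ENZ and 135, 136 and 134 CPM in Control (adjusted p = 2.54e-04). MRPS18C, which takes the place of bacterial S18, fell by 0.31 ± 0.07 on the log2 scale, with 17.3, 14.7 and 15.9 CPM in ENZ and 19.6, 19.5 and 20.3 CPM in Control (adjusted p = 0.00215). Neither pair of groups overlapped. MRPS18A, which despite its symbol is part of the large subunit, had 21.9, 27.7 and 24.2 CPM in ENZ and 23.9, 24.1 and 22.6 CPM in Control, and its interval ran from -0.10 to 0.22 (adjusted p = 0.559). The differences among the paralogs were not tested. Exons of another gene cover 50.9% of the exonic bases of MRPS18A and 40.2% of those of MRPS18C, whereas MRPS18B has no such overlap, and with GC and length offsets the fall of MRPS18C lost its call (-0.11; adjusted p = 0.221).

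Symbols do not always give the subunit. MRPS30 is also a large-subunit protein, and MRPS36 is known as a part of the 2-oxoglutarate dehydrogenase complex rather than of the ribosome. MRPS30 had 80.3, 77.9 and 77.1 CPM in ENZ and 81.3, 80.6 and 81.1 CPM in Control (log2 fold change -0.05; adjusted p = 0.42). MRPS36 had 28.3, 28.8 and 30.3 CPM in ENZ and 28.7, 29.7 and 29.4 CPM in Control (-0.01; adjusted p = 0.943). With GC and length offsets both turned to called rises, of 0.21 and 0.33.

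A further 5 ribosomal proteins have symbols outside the MRPL and MRPS pattern, and 4 of them rose and 1 fell; so small a list is not read against the 20.5% and 19.3% of all genes. DAP3, a GTP-binding small-subunit protein first described in cell death, had 116, 115 and 125 CPM in ENZ and 103, 105 and 108 CPM in Control (0.17 ± 0.04). CHCHD1 rose by 0.19 ± 0.06 and AURKAIP1 by 0.13 ± 0.04, both small-subunit proteins, and GADD45GIP1, of the large subunit, by 0.20 ± 0.05. PTCD3, a pentatricopeptide-repeat protein of the small subunit, had 109, 105 and 106 CPM in ENZ and 116, 112 and 125 CPM in Control (-0.15 ± 0.04; adjusted p = 0.0118). The calls of PTCD3 (-0.06) and AURKAIP1 (0.02) ended with GC and length offsets, and those of CHCHD1 (0.15) and AURKAIP1 (0.10) with library totals alone. One library left out also ended the call of PTCD3 (Control replicate 3 or ENZ replicate 2; -0.10 and -0.13), of CHCHD1 (Control replicate 2 or 3 or ENZ replicate 3; 0.12 to 0.19) and of AURKAIP1 (any but Control replicate 2 or ENZ replicate 1; 0.10 to 0.14), leaving as few as 2 calls. Assigned by structure, with these 5 added, MRPS18A and MRPS30 moved and MRPS36 left out, 19 of 51 large-subunit genes rose and 4 fell, and 8 of 28 tested small-subunit genes rose and 3 fell. These are 37.3% and 7.84% in the large and 28.6% and 10.7% in the small subunit, beside 20.5% and 19.3% of all genes. The medians were then 0.11 and 0.08. Members classed by name as having a bacterial homolog had 12 rises and 4 falls among 44 tested (27.3% and 9.09%). Members classed by name as mitochondrial had 11 rises and 2 falls among 30 (36.7% and 6.67%). Both stand beside the same shares of all genes. The mitochondrial class holds MRPS18A and the rise MRPS18B, although both descend from bacterial S18, so the 2 classes are not cleanly split by descent.

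Levels between genes are compared per length, in FPKM as the authors deposited them. Most of the proteins are present once per ribosome. Mean levels ran between 0.892 FPKM (MRPL38) and 123 FPKM in the large subunit. MRPL41 was highest, at 137 ± 10.9 FPKM in ENZ and 109 ± 2.05 FPKM in Control (SD, n = 3 each). By the mean over all libraries MRPS18B led the small subunit, at 87.0 ± 1.64 FPKM in ENZ and 77.6 ± 0.294 FPKM in Control, ahead of MRPS34, which was the higher of the pair in Control (83.9 ± 3.17 FPKM in ENZ and 80.1 ± 2.82 FPKM in Control) and MRPS26. MRPS34 was not called (0.10; adjusted p = 0.0867), but was without ENZ replicate 1 (0.14). MRPL51, second in the large subunit by its mean over all libraries, had 82.1 ± 5.18 FPKM in ENZ and 83.4 ± 5.73 FPKM in Control, and its groups overlapped. MRPL24 followed it at 89.5 ± 5.19 FPKM in ENZ and 75.4 ± 3.04 FPKM in Control. MRPS18B and MRPS34 lay within their spread of each other, as did MRPL51 and MRPL24 by their means over all libraries. The median level was 24.4 FPKM in the large and 17.4 FPKM in the small subunit. Exons of other genes cover 45.1% of the exonic bases of MRPL38, 31.2% of those of MRPS34 and 27.6% of those of MRPL51. Their levels are therefore uncertain, whereas MRPL41, MRPL24, MRPS18B and MRPS26 have no such overlap.

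**Figure D3:**
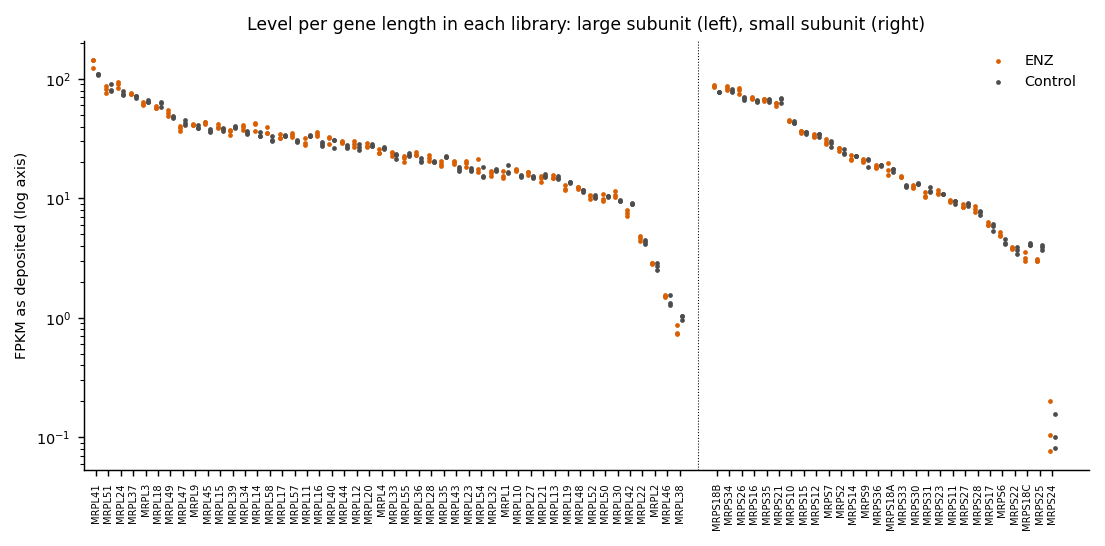
FPKM of each member in each library on a log axis, large subunit left and small subunit right, sorted by mean level; orange points are ENZ and dark points are Control libraries. Levels run from MRPL41, over 100 FPKM in each library, to MRPL38 and MRPS24 at the low ends, and MRPS5 is not drawn because it was at 0 in 5 of 6 libraries.

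At the low end, MRPL38, of the central protuberance like MRPL46, had 0.779 ± 0.0766 FPKM in ENZ and 1.01 ± 0.0458 FPKM in Control, MRPL46 had 1.52 ± 0.0243 FPKM in ENZ and 1.38 ± 0.154 FPKM in Control, and MRPL2, close to the catalytic centre, had 2.86 ± 0.0286 FPKM in ENZ and 2.70 ± 0.192 FPKM in Control. None of these 3 was called (adjusted p = 0.0768, 0.153 and 0.397), but MRPL46 was a called rise without Control replicate 2 (0.27) and with GC and length offsets (0.32; adjusted p = 0.00852), and MRPL38 a called fall with those offsets (-0.40; adjusted p = 0.0313). The 2 members that failed the filter were MRPS24, with 6, 14 and 8 counts in ENZ and 6, 11 and 7 counts in Control, and MRPS5, with 3, 0 and 0 counts in ENZ and 0 in each Control library. A count of 0 allows a level of up to 3 counts, 0.0999 to 0.112 CPM, for counting error only. Both encode core proteins of the small subunit with bacterial homologs, and the annotation places a same-strand gene over part of their exons, 23.2% and 23.3% of exonic bases. MRPL38, MRPL2 and MRPL46 also have a same-strand gene over part of their exons. Exons of other genes on either strand cover 45.1%, 34.96% and 11.3% of their exonic bases, so their low levels are uncertain too. Whether reads shared with overlapping genes were dropped in counting was not tested for any of these members. In all, 40 of 77 members share exonic bases with another gene, 19 of them over at least 20%. Among the 37 members with no shared exonic base, all of them tested, 13 rose and 1 fell (35.1% and 2.70%, beside 20.5% and 19.3% of all genes), with a median of 0.08. Reads of processed pseudogenes were few in the table: 26 rows of MRPL and MRPS pseudogenes held 662 counts in all, 0.077% of the members' counts.

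Fold changes went with base composition. Across 75 members, which share the libraries, Spearman's rho between GC content of the longest transcript and log2 fold change was 0.39, and across 18538 genes tested it was 0.34. The 23 members that rose had a median GC content of 51.7% and the 6 that fell 39.4%. Among 31 members under 45% GC, 5 rose and 5 fell (16.1% each), beside 10.4% and 31.6% of all genes tested under that limit. Among 44 members at 45% GC or more, 18 rose and 1 fell (40.9% and 2.27%), beside 26.8% and 11.6% of all genes in that range. The 45% limit was chosen after the data were seen. The part that base composition plays in the differences between ENZ and Control was not tested.

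**Figure D4:**
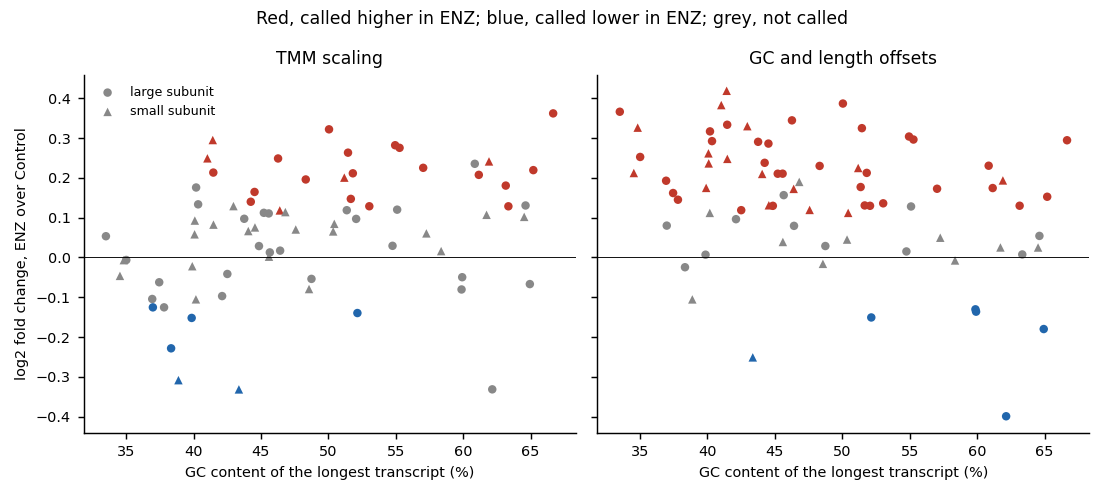
Log2 fold change of each tested member (vertical axis) against GC content of its longest transcript (horizontal axis), with TMM scaling alone (left) and with GC and length offsets (right); circles are large-subunit and triangles small-subunit genes. Called rises number 23 on the left and 48 on the right, and most low-GC members move upwards between the panels. The median of all genes tested moved too, from -0.01 to 0.03.

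Promoters are shown for the member with the smallest p among the rises and among the falls of each subunit. They run from 250 bases before to 50 bases after the gene start, are read 5′ to 3′ on the gene's strand and come from RefSeq (GRCh38.p14). Capitals mark matches, on either strand, to an ETS motif (CCGGAAG), an NRF1 motif (GCGC, any 2 bases, GCGC), a YY1 motif (ATGGCGGC) or an E-box (CACGTG). They were chosen from the rises MRPL16 (chr11:59810729-59811028, minus strand) and MRPS33 (chr7:141014903-141015202, minus strand) and the falls MRPL42 (chr12:93467264-93467563, plus strand) and MRPS25 (chr3:15065266-15065565, minus strand).
MRPL16: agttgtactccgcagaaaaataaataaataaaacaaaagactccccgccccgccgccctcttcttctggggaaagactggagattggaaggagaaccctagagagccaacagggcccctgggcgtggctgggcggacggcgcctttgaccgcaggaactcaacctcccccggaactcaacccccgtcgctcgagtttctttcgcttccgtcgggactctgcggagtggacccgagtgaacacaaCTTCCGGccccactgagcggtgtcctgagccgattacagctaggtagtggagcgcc
MRPS33: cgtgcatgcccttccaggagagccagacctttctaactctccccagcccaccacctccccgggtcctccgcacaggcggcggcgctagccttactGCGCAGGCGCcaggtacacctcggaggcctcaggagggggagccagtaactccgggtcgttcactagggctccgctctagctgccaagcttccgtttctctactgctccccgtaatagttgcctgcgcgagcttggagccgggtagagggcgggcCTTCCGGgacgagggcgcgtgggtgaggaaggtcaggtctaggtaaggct
MRPL42: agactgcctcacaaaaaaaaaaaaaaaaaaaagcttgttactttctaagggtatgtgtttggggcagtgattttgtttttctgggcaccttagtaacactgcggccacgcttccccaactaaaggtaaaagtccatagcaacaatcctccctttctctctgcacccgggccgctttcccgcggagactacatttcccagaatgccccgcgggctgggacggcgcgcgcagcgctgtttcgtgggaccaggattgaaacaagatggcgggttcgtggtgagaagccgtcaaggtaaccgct
MRPS25: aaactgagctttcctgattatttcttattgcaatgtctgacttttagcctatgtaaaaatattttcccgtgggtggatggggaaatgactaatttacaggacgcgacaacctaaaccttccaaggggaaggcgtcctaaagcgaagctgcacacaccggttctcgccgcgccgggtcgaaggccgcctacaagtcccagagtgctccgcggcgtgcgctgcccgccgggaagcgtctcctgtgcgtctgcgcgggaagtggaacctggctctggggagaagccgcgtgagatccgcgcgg

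MRPL16 held 1 match, to the ETS motif, whose first base lies 6 bases before the start. MRPS33 held an NRF1 match that begins 155 bases before the start and an ETS match that begins at the start itself. MRPL42 and MRPS25 held none of the 4 motifs in this window. A promoter was found for 68 of the 77 members. The ETS letters were in 28 of them (41.2%) and the YY1 letters in 19 (27.9%), beside 10.7% and 3.21% of all 27305 promoters and 18.1% and 5.84% of promoters of genes tested here. NRF1 letters were in 13.2% of member promoters, beside 8.78% of all and 15.3% of those of tested genes, and the E-box in 8.82%, beside 7.43% and 10%. By call, ETS letters were in 9 of 21 promoters of members that rose, 1 of 5 of those that fell and 18 of 40 of those tested without a call. NRF1 letters were in 6, 0 and 3 of the same promoters, YY1 letters in 3, 1 and 14, and the E-box in 4, 1 and 1. The median GC content of these promoters also differed, at 64.3%, 52.3% and 59.7% in the same order. The part of base composition in the motif counts was not tested, and motif counts by call over all genes were not made. These counts describe letters in a window, not bound sites.

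The genes that build and serve the mitochondrial ribosome moved in both directions. Of 33 assembly and rRNA maturation genes, 10 rose and 2 fell (30.3% and 6.06%, beside 20.5% and 19.3% of all genes), with a median of 0.08. GTPBP10, a GTPase of large-subunit maturation, had 57.8, 50.3 and 47.4 CPM in ENZ and 67.1, 64.2 and 73.4 CPM in Control (log2 fold change -0.40 ± 0.07; adjusted p = 2.79e-04). DDX28, an RNA helicase of the same pathway, rose by 0.29 ± 0.05, and TRUB2, a pseudouridine synthase, by 0.28 ± 0.05. Of 19 translation factors 3 rose and 2 fell (15.8% and 10.5%, both under the shares of all genes), with a median of 0.06. OXA1L, which inserts new chains into the inner membrane, rose by 0.18 ± 0.04, the release factor MTRF1L fell by 0.34 ± 0.08, and TSFM, partner of elongation factor Tu, rose by 0.60 ± 0.23 at low levels, with 1.78, 1.55 and 1.39 CPM in ENZ and 1.26, 0.841 and 1.00 CPM in Control; its call ended with DESeq2 (adjusted p = 0.169) and without Control replicate 2 (0.48) or 3 (0.58) or ENZ replicate 1 (0.50) or 2 (0.61).

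Regulators of the mitochondrial genome and of nuclear genes for mitochondria had 4 rises and 5 falls among 15 tested (26.7% and 33.3%, beside 20.5% and 19.3% of all genes), with a median of 0.04. GABPA, an ETS factor, had 51.1, 42.9 and 43.3 CPM in ENZ and 59.8, 52.5 and 55.7 CPM in Control (-0.29 ± 0.07; adjusted p = 0.0023). MTERF2 fell by 0.32 ± 0.09, TFAM, which packages and transcribes mitochondrial DNA, by 0.27 ± 0.06 and GABPB1, the partner of GABPA, by 0.25 ± 0.06, with no overlap of the groups in these genes. With GC and length offsets GABPA (-0.08; adjusted p = 0.165), TFAM (-0.05; adjusted p = 0.40) and GABPB1 (-0.06; adjusted p = 0.365) lost their calls, and 4 regulators in all were called. The MTERF2 call ended without ENZ replicate 3 (-0.24; adjusted p = 0.0506). POLRMT, the mitochondrial RNA polymerase, rose by 0.20 ± 0.05 and YY1 by 0.11 ± 0.04; the POLRMT call ended with the offsets (0.02) and the YY1 call with library totals alone (0.08) and without Control replicate 1 (0.10). NRF1 was at 0.10 (adjusted p = 0.219) and MYC at 0.09 (adjusted p = 0.0914), neither of them called. PERM1, called at 1.19 ± 0.46, had 0.402, 0.417 and 1.01 CPM in ENZ and 0.419, 0.219 and 0.148 CPM in Control, and its groups overlapped; its call ended with DESeq2 (adjusted p = 0.146) and without ENZ replicate 3 (0.62), Control replicate 2 (1.08) or Control replicate 3 (0.92).

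The RNA parts of the ribosome are encoded in mitochondrial DNA and were listed as MT-RNR1, MT-RNR2 and MT-TV. MT-TV had few reads, with 16, 19 and 13 counts in ENZ and 11, 13 and 20 counts in Control. It was not called (log2 fold change 0.09, adjusted p = 0.867). MT-RNR1, the rRNA of the small subunit, had 634, 631 and 641 CPM in the ENZ libraries, against 396, 418 and 434 CPM in the Control libraries (0.61 ± 0.04; adjusted p = 9.81e-12). MT-RNR2, the rRNA of the large subunit, had 4065, 4042 and 4163 CPM in ENZ and 4479, 4627 and 4365 CPM in Control (-0.13 ± 0.03; adjusted p = 0.00138). Neither gene's groups overlapped. MT-RNR1 was called higher in each of the 18 alternative settings, whereas with GC and length offsets MT-RNR2 turned to 0.03 and lost its call (adjusted p = 0.495). The libraries were made from polyadenylated RNA, so these counts cover only the RNA that oligo(dT) beads captured.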

How the data were processed

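Gene-level counts and FPKM values of 6 libraries were analysed, grouped by sample title. The authors deposited a table of unnormalised counts beside FPKM; the deposited FPKM equalled count over gene length and library total to within 4.37e-06 percent at 10 or more counts. Per the submitters' processing notes the tools were HISAT2 2.0.5, HTSeq 0.6.1 and DESeq2 1.20.0 on GRCh38; the annotation release, strand setting and filters used upstream are not given. Per the labels' protocols, poly(A) RNA was selected and the NEBNext Ultra kit does not mark strand. Recovered gene lengths equalled GENCODE release 44 exons for 73 of 76 members.

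Counts were tested across all genes with edgeR 4.0.16 (R 4.3.3; TMM, default filter, robust quasi-likelihood F test, Benjamini-Hochberg). The SE is the absolute log2 fold change over the square root of F. The fit was tested on simulated counts. Alternatives were DESeq2 1.42.0, limma 3.58.1 (voom, and log2 FPKM with pseudocounts of 1 and 0.1 for genes of mean FPKM of at least 1, the pseudocount of 1 also without that filter), other scalings and filters, a replicate block, spline offsets (4 degrees of freedom) for GC and length, and each library left out. Within groups, libraries differed by more than sampling noise (chi-square per degree of freedom 1.99 to 6.77).

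Members and lists were chosen with earlier results of these data known. Members named with values were up to 6 called rises and 6 called falls per subunit by log2 fold change, the 3 highest and 3 lowest levels, the MRPS18 paralogs, MRPS30, MRPS36 and members that failed the filter; in each list up to 3 called genes with the largest absolute log2 fold change were named, and other list genes, and those named among the smaller rises or among calls in every setting, were chosen after their values were seen.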

Additional observations from a re-analysis of the deposited data

How the results depend on the processing

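With voom, median-ratio factors or a 10-count filter, 17 or 18 large-subunit and 5 small-subunit members were higher and the medians stayed at 0.11 to 0.12 and 0.07. With library totals alone 16 and 4 were higher, 5 and 3 lower, and the medians 0.08 and 0.035, while the median of all genes was -0.04. Both medians were above 0 in each of the 18 settings. Of the 29 called members, 24 were called in the same direction with GC and length offsets, which added 30 calls, 25 with DESeq2 and 13 on unfiltered log2(FPKM + 1); 0 were called in the opposite direction in any setting. With DESeq2, 2 large-subunit members were lower and 3 translation factors were called, beside 4 and 5 as reported. With GC and length offsets 32 large-subunit and 16 small-subunit members were higher and 1 small-subunit member was lower. The small-subunit median was 0.17, the difference of the medians -0.013 and the median of all genes 0.03. In that setting MRPL35 was at 0.0070, MRPL19 at 0.080, MRPS30 at 0.21 and MRPS36 at 0.33, all of them negative with TMM alone; 3 other mitoribosomal proteins, 4 regulators and 1 ribosomal RNA gene were called, against 5, 9 and 2. Adding the replicate block to these offsets gave 33, 16 and 1 members, a median of 0.17, a difference of -0.013, 0.0067, 0.080, 0.21 and 0.33 for the same 4 genes, and 3, 4 and 1 list genes. On log2(FPKM + 1) with a filter, and on log2(FPKM + 0.1), 3 other mitoribosomal proteins, 3 translation factors and 5 regulators were called. Without a filter, log2(FPKM + 1) called 3728 genes, 8 large-subunit members higher and 1 lower, 2 small-subunit members higher (median 0.033), and 1, 6, 1 and 1 genes of the other protein, assembly, factor and regulator lists. Library totals alone called 3 other mitoribosomal proteins, and no filter called 3 translation factors. The cause of these differences was not tested.

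Assigning subunits by structure gave 8 small-subunit rises and a difference of the medians of 0.029. Leaving out 1 library at a time gave 14 to 24 large-subunit rises, 1 to 4 large-subunit falls, 4 to 8 small-subunit rises and a difference of the medians from 0.015 to 0.057; other mitoribosomal proteins called ran from 2 to 5 and translation factors from 2 to 6. Replicate numbers did not pair the libraries: deviations of same-numbered libraries correlated at 0.02, -0.01 and -0.05, and the replicate block alone gave 19 and 5 members higher and 4 and 2 lower in the large and small subunits. The 3 tested members under 10 CPM (MRPL2, MRPL38 and MRPL46) had standard errors of 0.096 to 0.15, so changes of the size seen in most members were not detectable there.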
